A study of Mus musculus with 7 samples.

Results

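The protein p53, the product of Trp53 in mice, was followed here together with 9 genes that it is known to switch on: Cdkn1a, Mdm2, Pmaip1, Rrm2b, Sesn1, Fas, Ccng1, Trp53inp1 and Bax. The members were chosen with earlier results of these data known and were looked up by symbol. All 10 were found, each as 1 row, among the 13167 transcripts of the footprint table. The data are ribosome profiles of mouse tissue labelled as epidermis, the outer layer of the skin. They come from 2 libraries of a Pelota (PELO) transgenic knockout (KO) and 2 libraries of wild type (WT) mice. The labels used here give no strain, age, sex or Cre driver and do not say in which cells Pelo was deleted, so the groups are described only by genotype. Ribosome profiling sequences the stretch of mRNA covered by a ribosome, so the count over a coding region measures the ribosomes found on it. The labels name RNA-seq libraries too (2 KO and 1 WT), and these were not analysed here. A footprint change can therefore reflect more mRNA, more ribosomes per mRNA or a different share of the cells that express the gene. Without RNA counts, and in bulk tissue, these cannot be told apart here.

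As background, p53 is a transcription factor that is kept scarce in unstressed cells because the ubiquitin ligase Mdm2 marks it for destruction. DNA damage, faulty ribosome assembly and other stresses stabilise it, and it then binds DNA at paired half-sites and induces genes for cell cycle arrest, DNA repair, metabolic adjustment and apoptosis, along with Mdm2 itself, which closes a feedback loop. In skin it is known above all for the response of keratinocytes to ultraviolet light. Because p53 is controlled largely through protein stability and modification, footprints on Trp53 report the ribosomes found on its mRNA and not p53 activity. The amount of p53 protein was not measured here.

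The DNA that p53 recognises is shown for the members with a near match in a promoter window used here, because p53 is known to act on its targets through such sites. The windows, from RefSeq on build GRCm38.p6, run from 250 bases before to 50 bases after an annotated start. For the members, 9 windows of 7 of the 10 genes were used. Members' windows on 1 chromosome were set aside, and none is given for Pmaip1, Rrm2b or Trp53inp1. The windows were searched for 2 copies of the p53 half-site consensus of 10 letters, 0 to 10 bases apart. This consensus is its own reverse complement, so 1 search covers both strands. Capitals mark the central 4 bases of each half-site.
Cdkn1a, chr17:29090928-29090947, plus strand: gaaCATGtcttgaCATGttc
Ccng1, chr11:40755462-40755481, minus strand: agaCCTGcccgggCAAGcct
Bax, chr7:45467090-45467110, minus strand: aagCATAtcccaggCAAGctt
Sesn1, chr10:41887253-41887275, plus strand: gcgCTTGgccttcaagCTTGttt
The sites in Cdkn1a, Ccng1 and Bax each departed from the consensus at 1 of 20 letters, a closeness that 0.895% of all promoter windows reached. The Sesn1 site departed at 2 letters, which 8.39% of windows reached or bettered; the other Sesn1 window held nothing closer than 5 departures. For Cdkn1a the match lay 51 to 32 bases before the upstream of its 2 annotated starts, and the window at the downstream start held nothing closer than 5 departures. Windows of Trp53, Fas and Mdm2 held nothing closer than 3, 4 and 4 departures; a site outside a window was not searched for.

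The libraries were deep and alike within a genotype. The KO libraries held 4925876 and 4521561 coding footprints and the WT libraries 5282276 and 4221675. Replicates correlated at r = 0.983 over log counts in either genotype (a correlation across genes, which are not independent replicates), yet their counts varied beyond sampling noise, with a mean chi-square per gene of 5.50 for the KO pair and 10.1 for the WT pair. Whether replicates are separate animals is not stated, so p-values cover only the spread between these libraries. Pelo, the targeted gene, had 24 and 21 coding footprints in KO libraries against 101 and 61 in WT, a log2 change of −1.65 (SE 0.24, adjusted p = 0.000807, edgeR's quasi-likelihood test). The keratinocyte markers Krt5, Krt14, Krt1 and Krt10 were listed in all 4 libraries, and several of the marker lists shifted between genotypes. Of the 6 basal keratinocyte markers tested, 2 were called higher and 2 lower in KO (adjusted p under 0.05). Basal markers took 2.4% and 2.2% of all coding counts in the KO libraries and 1.55% and 1.65% in the WT libraries. In every library this was less than the dermal fibroblast markers took, so the tissue was not epidermis alone. None of the 3 endothelium markers was called, while 3 of 5 T cell markers and all 3 adipocyte markers tested were called lower in KO. Suprabasal and cornified markers took 5.53% and 5.19% of all coding counts in the KO libraries, against 1.67% and 1.55% in the WT libraries, wound keratinocyte markers 2.47% and 2.75% against 0.579% and 0.680%, and dermal fibroblast markers 3.93% and 4.47% against 8.41% and 12.6%. Langerhans cell and macrophage markers took 0.222% and 0.241% in KO and 0.503% and 0.508% in WT. Hair markers took 0.352% and 0.193% in KO and 0.0375% and 0.0322% in WT, but of the 3 tested 2 were called higher and 1 lower in KO. Krt31 and Krt33b of the hair list, and Krt2 of the suprabasal list, were not listed in every library and added nothing where unlisted. Melanocyte markers took 0.0285% and 0.0146% in KO and 0.00210% and 0.00239% in WT. Sebaceous gland markers took 0.0473% and 0.0852% in KO and 0.308% and 0.294% in WT. All 7 fibroblast and all 5 Langerhans cell and macrophage markers were listed in every library, and 5 and 3 of them were called lower in KO. The part of these shifts in the results below was not tested.

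Footprints on p53 and its targets did not move in 1 direction in the knockout. Trp53 itself rose 1.48-fold, the cell cycle inhibitor Cdkn1a 1.34-fold and the pro-apoptotic Pmaip1 3.29-fold. In contrast Rrm2b, which supplies nucleotides for DNA repair, fell 2.99-fold, the metabolic regulator Sesn1 1.87-fold, the death receptor Fas 1.69-fold and the p53 inhibitor Mdm2 1.47-fold, while Ccng1, Trp53inp1 and Bax did not pass the test. That is 7 of 10 called at an adjusted p of 0.05, 3 higher and 4 lower, where 39.0% of all 10953 genes tested were called, 19.9% higher and 19.1% lower. Because the members were chosen with earlier results of these data known, their share cannot be read as an excess over all genes. The median log2 change of the members was −0.06, beside −0.02 over all genes tested. In 8 of 10 the genotypes did not overlap, beside 71.9% of all genes. Pmaip1 passed the count filter only through the KO libraries, and without it 6 of 9 were called, 2 higher and 4 lower. DESeq2 called 4 of the 10, 2 in each direction (Trp53 and Pmaip1 higher, Rrm2b and Sesn1 lower), and edgeR called 4 without KO replicate 1 and 4 without WT replicate 2, again 2 in each direction.

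**Figure D1:**
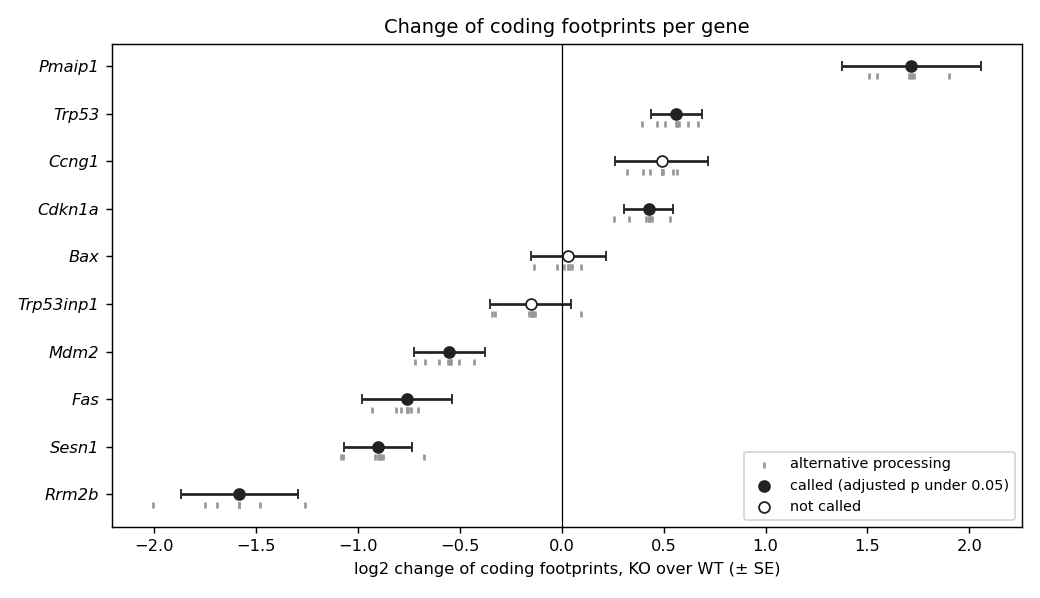
Log2 change of coding footprints, KO over WT, for p53 and its 9 targets, with the standard error as bars (n = 2 libraries per genotype) and grey ticks for the value under each alternative processing. Filled circles mark the 7 genes called at an adjusted p of 0.05; Pmaip1 lies farthest right at 1.72 and Rrm2b farthest left at −1.58.

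Trp53 carried more footprints in both KO libraries. Its coding region, 1113 nt in transcript uc007jqn.2, held 534 and 548 footprints in KO replicates 1 and 2 against 505 and 333 in WT replicates 1 and 2. Scaled to a common library size with TMM factors (CPM), this was 122 ± 6.72 CPM in KO and 82.2 ± 8.40 CPM in WT (SD, n = 2 each). Both KO libraries lay above both WT libraries once scaled, although the raw count of KO replicate 1 was only a little over that of WT replicate 1, the library with the most footprints. The log2 change was 0.56 (SE 0.13, adjusted p = 0.00730), and the 4 pairings of a KO with a WT library gave 0.41 to 0.73. With library totals in place of TMM the change was 0.39 and passed only narrowly (adjusted p = 0.0488, edgeR). Leaving out 1 library moved the change between 0.47, without WT replicate 2, and 0.67, without WT replicate 1.

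Mdm2, the ubiquitin ligase that destroys p53 and is itself induced by it, went the other way. It held 68 and 76 coding footprints in KO libraries against 132 and 107 in WT over 1410 nt of transcript uc007hdm.2, or 16.2 ± 1.87 CPM in KO and 23.8 ± 1.03 CPM in WT. Both KO libraries were below both WT libraries, with a log2 change of −0.55 (SE 0.17, adjusted p = 0.0315). The call held without KO replicate 2 (−0.67, adjusted p = 0.0287), but was lost without KO replicate 1 (−0.43, adjusted p = 0.159), without WT replicate 1 (−0.60, adjusted p = 0.0746) and without WT replicate 2 (−0.51, adjusted p = 0.116), and with DESeq2 (−0.54, adjusted p = 0.204).

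Among the cell cycle genes, Cdkn1a, which encodes the cyclin-dependent kinase inhibitor p21, was the member with the most ribosomes per length. It held 805 and 779 coding footprints in KO libraries against 813 and 536 in WT over 420 nt of transcript uc008bsg.2. After scaling this was 178 ± 2.45 CPM in KO and 132 ± 13.5 CPM in WT, with both KO libraries above both WT libraries. The log2 change was 0.43 (SE 0.12, adjusted p = 0.0203). It did not pass when library totals replaced TMM (0.26, adjusted p = 0.147), with DESeq2 (0.44, adjusted p = 0.0675) or without WT replicate 2 (0.33, adjusted p = 0.116). Ccng1, which encodes cyclin G1, a p53-induced partner of the phosphatase PP2A, had 49 and 43 footprints in KO libraries against 40 and 34 in WT over 825 nt of transcript uc007ilz.1. Both KO libraries were higher after scaling, at 10.3 ± 0.571 CPM in KO and 7.38 ± 0.569 CPM in WT, but at these counts the log2 change of 0.49 (SE 0.23) did not pass (adjusted p = 0.121).

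The 4 apoptosis genes differed among themselves. Pmaip1 encodes Noxa, a BH3-only protein that neutralises the survival factor Mcl1. Its short coding region of 252 nt (uc008fft.1) held 26 and 21 footprints in KO libraries against 8 and 8 in WT, or 5.26 ± 0.599 CPM in KO and 1.61 ± 0.308 CPM in WT. Only the KO libraries reached the count filter, so Pmaip1 entered the test through the group where it was higher. With that limit, and at these few counts, the log2 change was 1.72 (SE 0.34, adjusted p = 0.00390, edgeR). Fas, the cell surface death receptor, had 34 and 30 footprints in KO libraries against 69 and 54 in WT over 924 nt of transcript uc008hgi.2, or 7.18 ± 0.370 CPM in KO and 12.2 ± 0.228 CPM in WT. The replicates of either genotype lay close together and the genotypes did not overlap (log2 change −0.76, SE 0.22, adjusted p = 0.0230). Fas nevertheless lost its call when any 1 of the 4 libraries was left out: the log2 change was −0.81 without KO replicate 1 (adjusted p = 0.0548), −0.71 without KO replicate 2 (0.0802), −0.79 without WT replicate 1 (0.0629) and −0.74 without WT replicate 2 (0.0722), and it did not pass with DESeq2 either (−0.75, adjusted p = 0.179).

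Bax, the pore-forming protein that opens the mitochondrial outer membrane, had 68 and 70 footprints in KO libraries against 86 and 67 in WT over 519 nt of transcript uc009gvi.1. After scaling the genotypes overlapped, at 15.5 ± 0.891 CPM in KO and 15.2 ± 0.235 CPM in WT, and the log2 change of 0.03 (SE 0.18, adjusted p = 0.908) did not pass. Trp53inp1, a stress protein that promotes p53 phosphorylation and autophagy, had 79 and 74 footprints in KO libraries against 125 and 70 in WT over 660 nt of transcript uc008rza.1. Its 2 WT libraries, at 21.8 and 16.0 CPM, stood on either side of the KO libraries at 17.3 and 17.1 CPM, and the log2 change of −0.15 (SE 0.20, adjusted p = 0.576) did not pass.

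The repair and metabolic targets Rrm2b and Sesn1 showed the clearest falls. Rrm2b encodes the p53-inducible small subunit of ribonucleotide reductase, which makes deoxynucleotides outside S phase. It held 23 and 13 footprints in KO libraries against 65 and 57 in WT over 996 nt of transcript uc007vnl.1, or 4.01 ± 1.44 CPM in KO and 12.2 ± 1.21 CPM in WT. The 2 KO libraries differed between themselves, yet both lay well below WT, with a log2 change of −1.58 (SE 0.29, adjusted p = 0.00249). Leaving out 1 library moved it between −2.00, without KO replicate 1, and −1.26, without KO replicate 2, and it passed each time. Sesn1 encodes sestrin 1, which restrains the growth kinase mTORC1. Its coding region of 1596 nt (uc007eye.2) held 123 and 120 footprints in KO libraries against 332 and 190 in WT. That was 27.3 ± 0.533 CPM in KO and 50.7 ± 10.2 CPM in WT, a log2 change of −0.90 (SE 0.17, adjusted p = 0.00267). The WT pair was uneven, but even the lower WT library, at 43.5 CPM, exceeded both KO libraries at 26.9 and 27.7 CPM. Trp53, Rrm2b and Sesn1 passed under all 9 alternatives. Pmaip1 could not be tested when either KO library was left out, since only the KO libraries held at least 10 of its footprints.

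Per length, the members spanned a wide range of ribosome density in both genotypes. In RPKM, which scales footprints by coding length and library size, Cdkn1a led with 423 ± 5.83 in KO and 315 ± 32.2 in WT, above 96.3% and 96.6% of genes tested. Trp53 followed with 109 ± 6.04 in KO and 73.8 ± 7.55 in WT. In KO the order then ran Bax (29.9), Trp53inp1 (26.0), Pmaip1 (20.9), Sesn1 (17.1), Ccng1 (12.5), Mdm2 (11.5), Fas (7.77) and Rrm2b (4.03), and Ccng1 and Mdm2 were the only neighbours whose libraries overlapped. In WT it ran Sesn1 (31.8), Bax (29.2), Trp53inp1 (28.7), Mdm2 (16.8), Fas (13.2), Rrm2b (12.2), Ccng1 (8.94) and Pmaip1 (6.40), and Sesn1 with Bax, Bax with Trp53inp1, and Fas with Rrm2b overlapped. Pmaip1 thus ranked 5 of 10 in KO and 10 of 10 in WT, with a density above 55.9% of genes tested in KO and 14.8% in WT. Rrm2b, the least dense member in KO, was above 7.43% of genes tested there and 36.3% in WT.

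**Figure D2:**
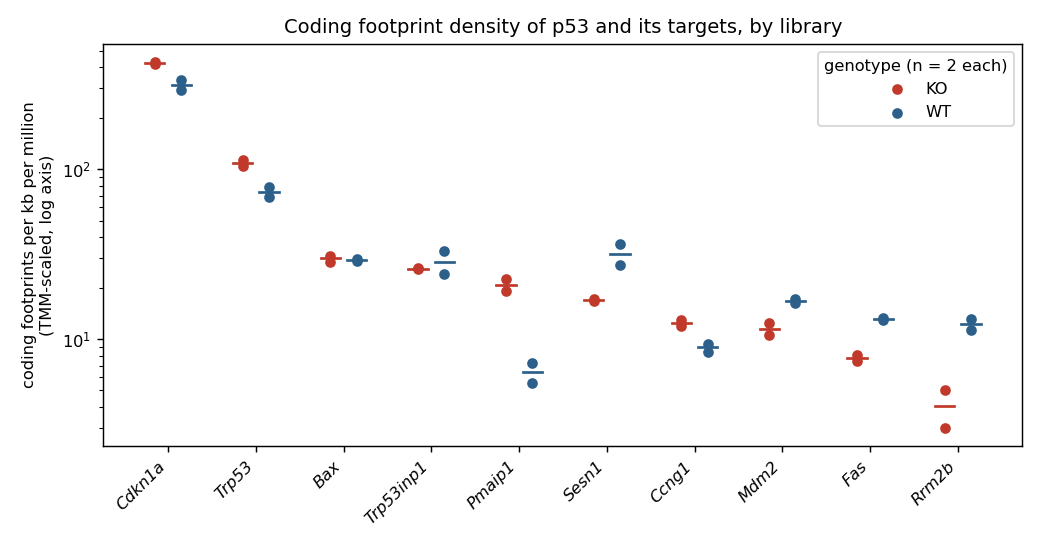
Coding footprint density in RPKM (TMM-scaled, logarithmic axis) of each member in each library, with a bar at the mean of the 2 libraries, ordered by the KO mean. Cdkn1a and Trp53 lie above the rest in both genotypes, and Pmaip1 and Rrm2b show the widest gaps between KO and WT.

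Footprints in the 5′ UTR, where upstream reading frames are read, were few but detectable for 9 of the 10 members. Summed over both libraries they numbered 44 in KO libraries against 14 in WT for Cdkn1a, 16 against 17 for Trp53, 11 against 14 for Ccng1 and 9 against 14 for Mdm2, while Fas, with a 5′ UTR of 50 nt, had none. Over all transcripts, footprints on 5′ UTRs equalled 1.45% and 1.69% of coding footprints in KO libraries against 1.09% and 0.996% in WT, so the share was higher in both KO libraries over all genes together. Cdkn1a and Trp53 were the 2 members with enough counts to test the ratio of 5′ UTR to coding footprints. Cdkn1a had 17 and 27 footprints on its 95 nt in KO libraries against 5 and 9 in WT. It thus met the filter of at least 10 counts only through the KO libraries, where it was higher. Its ratio could not be tested when either KO library was left out. Both KO libraries were above both WT libraries in the share of coding footprints too, at 2.11% and 3.47% in KO libraries against 0.615% and 1.68% in WT. Relative to the typical change of all 5′ UTRs, which TMM within the region sets to about 0, its ratio changed by 0.60 on the log2 scale (SE 0.50, adjusted p = 0.571, edgeR) and did not pass, where 2.29% of 1618 genes did, 10 higher and 27 lower in KO. With the coding TMM factors used for both regions, which keeps that shift in, the ratio of Cdkn1a changed by 1.38 (adjusted p = 0.0291), along with 479 higher and 14 lower genes. With TMM within each region, it stood at −0.20 without WT replicate 1 (adjusted p = 0.878) and at 1.35 without WT replicate 2 (adjusted p = 0.272). Trp53 had 6 and 10 in KO libraries against 15 and 2 in WT, so the WT libraries spanned the KO values, and its ratio change of −1.22 (SE 0.60, adjusted p = 0.293) did not pass. It stood at −0.43 with the coding factors, −0.81 without KO replicate 1 and −1.83 without WT replicate 2 (adjusted p = 0.0558).

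**Figure D3:**
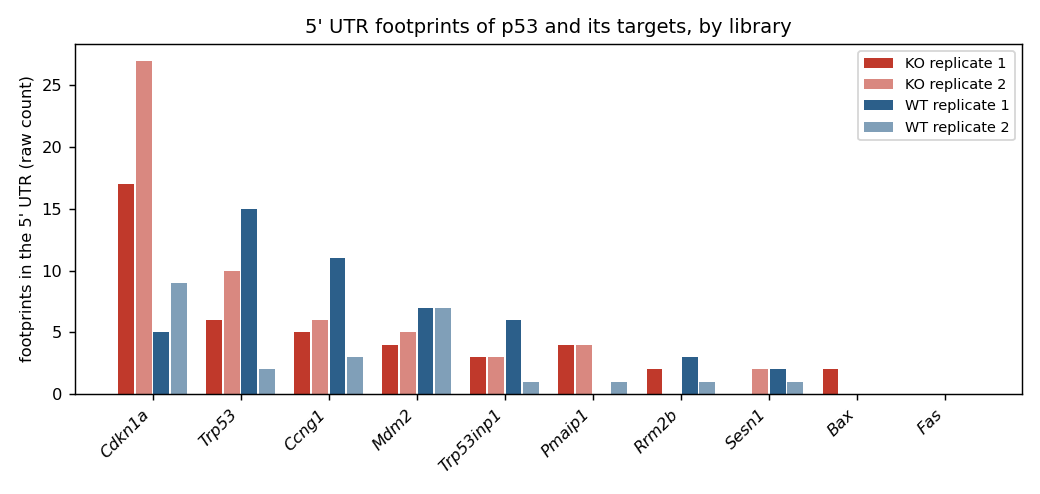
Raw 5′ UTR footprint counts of each member in KO replicates 1 and 2 and WT replicates 1 and 2, as bars from 0. Cdkn1a has 17 and 27 in KO libraries against 5 and 9 in WT, and no other member exceeds 15 in any library.

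Footprints in the 3′ UTR, where ribosomes that were not released after the stop codon can be found, were too few to test for any member. No count exceeded 8 in a library, and the 10 genes together had 27 in KO libraries against 18 in WT. Trp53 had the most, with 8 and 3 in KO libraries against 2 and 2 in WT. Relative to coding footprints the members' 3′ UTRs summed to 0.995% and 0.507% in KO and 0.598% and 0.343% in WT, so the genotypes overlapped. Over all transcripts the 3′ UTR share was lower in both KO libraries than in either WT library, at 0.570% and 0.611% in KO and 0.702% and 0.669% in WT.

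Other known p53 target genes moved in both directions as well. Of 32 listed, 26 could be tested, of which 7 rose, 4 fell and 15 were not called; the 42.3% called is close to the 39.0% of all genes, and the median log2 change was 0.20. The largest rises were in Sfn and Psrc1. Sfn encodes the cell cycle checkpoint protein 14-3-3 sigma, abundant in differentiating keratinocytes, and held 2264 ± 102 CPM in KO and 750.0 ± 70.6 CPM in WT, a log2 change of 1.59. Psrc1, a microtubule regulator, rose by 1.59 (14.2 ± 1.79 CPM in KO and 4.83 ± 1.90 CPM in WT; 1.19 without WT replicate 1 and 2.02 without WT replicate 2), the stress kinase gene Plk3 by 1.45, and Tnfrsf10b, the mouse TRAIL death receptor, by 1.21 (9.44 ± 0.667 CPM in KO and 4.07 ± 0.0761 CPM in WT). Both this receptor and Fas are death receptors, and they moved in opposite directions. The falls were in the nucleotide kinase gene Ak1 (−1.38), the DNA damage recognition gene Xpc (−0.80), the epoxide hydrolase gene Ephx1 (−0.70) and Pml, the scaffold of nuclear bodies (−0.57). With DESeq2, Xpc (adjusted p = 0.0525) and Pml (adjusted p = 0.127) did not pass, and Pml also missed without KO replicate 1 (−0.49, adjusted p = 0.0725) and without WT replicate 1 (−0.56, adjusted p = 0.0517). Suprabasal markers shifted the same way as Sfn, with 5.53% and 5.19% of all coding counts in the KO libraries against 1.67% and 1.55% in the WT libraries, and their part in its rise was not tested.

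**Figure D4:**
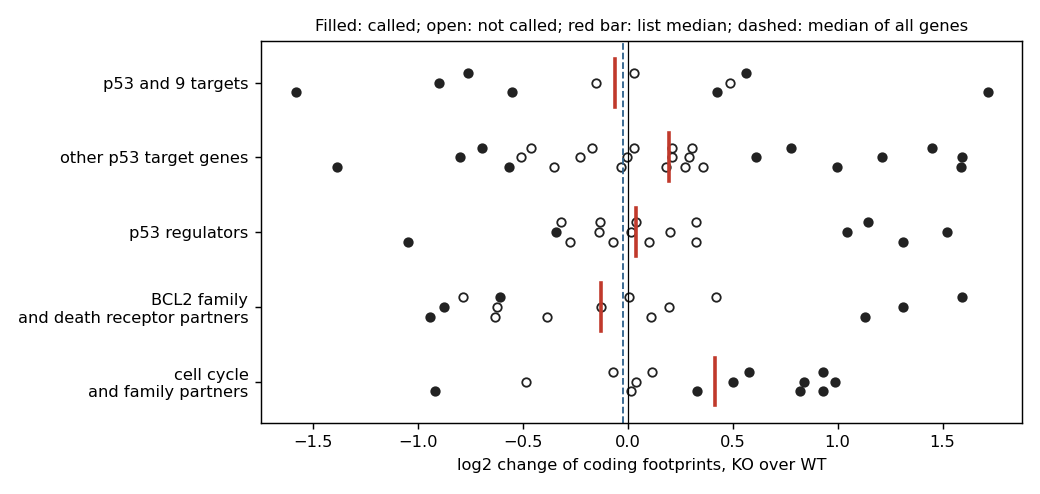
Log2 change of coding footprints, KO over WT, for each tested gene of the 5 lists; filled circles were called at an adjusted p of 0.05, open circles were not, red bars are list medians and the dashed line is the median of all genes at −0.02. Every list holds called genes on both sides of 0.

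Among genes that regulate p53, 4 of the 17 tested rose, 2 fell and 11 were not called, or 35.3% called, with a median of 0.04. The rises were in the ribosomal proteins Rpl5 (1.52) and Rpl11 (1.15), which bind Mdm2 when they are not built into ribosomes, in the nucleolar protein gene Npm1 (1.31) and in the p53 relative Trp73 (1.04; 17.6 ± 3.64 CPM in KO and 8.51 ± 0.0560 CPM in WT). Rpl5 held 552 ± 17.2 CPM in KO and 192 ± 1.44 CPM in WT; genes for ribosomal proteins and Npm1 have processed pseudogenes, and the sources used here do not say how shared reads were counted. The falls were in Mdm4, the Mdm2 relative that masks the activation domain of p53, and the coactivator Crebbp (−0.34, adjusted p = 0.0390). Mdm4 had 24 and 48 footprints in KO libraries against 86 and 82 in WT (−1.05, adjusted p = 0.0242). The KO pair was uneven, and the change was −0.59 without KO replicate 1 (adjusted p = 0.104), −1.67 without KO replicate 2 (adjusted p = 0.000176) and −0.88 without WT replicate 2 (adjusted p = 0.0962), and it missed with unlisted counts at 0 (adjusted p = 0.0804). Crebbp lost its call when any 1 library was left out, with adjusted p-values of 0.193 and 0.0557 without KO replicates 1 and 2, and 0.0977 and 0.109 without WT replicates 1 and 2. Cdkn2a, chosen after its values were seen, had 58 and 53 footprints in KO and was listed in neither WT library, where an unlisted value can be at most 4 for its 450 nt; its locus encodes the Mdm2 inhibitor Arf and the kinase inhibitor p16.

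Of 15 tested BCL2 family members and death receptor partners, 3 rose, 3 fell and 9 were not called, or 40.0% called, with a median of −0.13. The survival genes Bcl2 (−0.94), Bcl2l1 (−0.87) and Cflar (−0.61), the last an inhibitor of caspase activation at Fas, were the falls. Bcl2 had 11 and 16 footprints in KO libraries against 32 and 27 in WT; it missed without KO replicate 1 (−0.66, adjusted p = 0.251), WT replicate 1 (−1.03, adjusted p = 0.0797) and WT replicate 2 (−0.87, adjusted p = 0.115). Cflar missed without KO replicate 1 (−0.47, adjusted p = 0.156), WT replicate 1 (−0.56, adjusted p = 0.133) and WT replicate 2 (−0.66, adjusted p = 0.0711), and none of the 3 passed with DESeq2. The rises were in Bak1, the partner of Bax (1.13; 10.9 ± 1.34 CPM in KO and 4.96 ± 0.107 CPM in WT), in Cycs, the cytochrome c that Bax and Bak1 pores release (1.31), and in Bcl2a1a (1.59), a survival gene with near-identical copies whose separate value is uncertain. Bak1 rose while Bax itself did not pass the test; the difference between the 2 genes was not tested.

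Partners of the members in the cell cycle and in their gene families were called in 9 of 14 cases, with 8 higher, 1 lower and 5 not called. That is 64.3%, where 39.0% of all genes were called and 19.9% were higher, and the median log2 change was 0.42. This list too was chosen with earlier results of these data known, so its share cannot be read as an excess. DESeq2 called 5, and so did edgeR without WT replicate 1, 4 higher and 1 lower each time. Library totals gave 4 higher and 2 lower, and 5 were higher and 1 lower with unlisted counts at 0, and likewise when any other 1 library was left out. The S phase subunits of ribonucleotide reductase, Rrm2 (0.99; 63.8 ± 9.70 CPM in KO and 32.0 ± 5.38 CPM in WT) and Rrm1 (0.93; 167 ± 22.7 CPM in KO and 87.9 ± 4.18 CPM in WT), rose, opposite in direction to Rrm2b. Trp53inp2 (0.93), the autophagy relative of Trp53inp1, and the cyclin gene Ccnd2 (0.84) were the other 2 of the 4 largest. The fall was in Cdkn1b, which encodes the kinase inhibitor p27: 140 and 154 footprints in KO libraries against 358 and 273 in WT, a log2 change of −0.92 (SE 0.13, adjusted p = 0.000718), opposite in direction to its relative Cdkn1a. Within the sestrin and cyclin G families, Sesn3 (0.12, adjusted p = 0.684) and Ccng2 (−0.49, adjusted p = 0.120) did not pass; these 2 were named after their values were seen.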

How the data were processed

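Ribosome profiling of mouse tissue labelled as epidermis was analysed in 4 libraries. Titles give the genotype. The authors deposited raw counts of footprints per transcript region and region lengths on mm9 gene annotation, per the file headers. Builds hg19 and mm9 and the tools TopHat2 2.0.10, Bowtie2 2.2.6 and CASAVA 1.8 stand in the submitters' processing notes; their roles are not given. The table described as full-length footprints (28 to 34 nt) and the one described as short (20 to 22 nt) are byte-identical, so the length class is unknown. A count is listed only above a coding density of 0.01 per nt, so an unlisted value is not a 0. RNA-seq counts were not analysed here, so the planned tests of RNA and of translational efficiency were not run.

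Counts of all transcripts listed in all 4 libraries with at least 10 counts in at least 2 of them were fitted with edgeR 4.0.16 in R 4.3.3 (TMM, factors 0.928 and 0.959 in KO and 1.09 and 1.03 in WT; quasi-likelihood test; Benjamini-Hochberg over 10953 genes; threshold 0.05). SEs are the size of the log2 change divided by the square root of its F statistic. Region ratios were tested by a genotype-by-region term in a model that also held each library. DESeq2 1.42.0 was an alternative. The fits were tested on simulated data. Far fewer genes changed in the simulated coding counts than were called here, so normalization under such wide changes was not tested. The members and gene lists were chosen with earlier results of these data known. Of each list other than the members, up to 4 called genes per direction were named. Tigar and Cop1 were found under older symbols through RefSeq synonyms (GRCm38.p6). Members had 8 to 813 coding counts per library; precision is limited by counting error at the low end and also by the spread between libraries.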

Additional observations from a re-analysis of the deposited data

How the results depend on the processing

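DESeq2 called 2669 genes, 1492 higher and 1177 lower, against 4277, and 4 of the 10 members, 3 of the BCL2 family list and 5 of the cell cycle list. Library totals in place of TMM shifted the median log2 change over all genes by −0.17, split the calls into 1523 higher and 2986 lower against 2184 and 2093, and reversed Bax (−0.14). Leaving out 1 library gave 3279 to 3845 genes called, 4 to 5 members, 9 to 11 other targets, 4 to 5 regulators, 4 to 6 BCL2 family genes and 5 to 6 cell cycle genes. Bax stood between −0.024 and 0.094, Trp53inp1 between −0.34 and 0.094 and the 5′ UTR ratio of Cdkn1a between −0.20 and 1.35. The Cdkn1a ratio could be fitted only when a WT library was left out, since it missed the count filter without either KO library. Pmaip1 could not be tested without either KO library, since it then missed the count filter. Of 88 member values under alternatives, 73 kept direction and side of the threshold, 12 lost their call and 3 reversed, none of them a called gene. The 5′ UTR comparison called 37 genes, 2 with the replicate block, 493 with coding TMM factors, 22 with at least 5 counts and 5 to 63 when 1 library was left out. The 3′ UTR comparison called 46 of 223 genes, 13 with the replicate block, 0 with coding TMM factors and 0 to 12 when 1 library was left out; no member entered it. The cause of these changes was not tested. Deviations of same-numbered libraries correlated at −0.00506 across genes, which cannot decide whether the libraries were paired, and the labels do not say. The replicate block changed no call of a member in the coding comparison.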
